A study of Mus musculus with 9 samples.

Results

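Aminoacyl-tRNA synthetases are described here in D2.0R (also spelled D2.OR in the labels), a mouse mammary adenocarcinoma cell line. The members are the genes whose symbols have the form of a synthetase name, an amino acid letter followed by ars, together with Eprs, Farsa and Farsb. This rule found 37 genes among the 55492 rows of the deposited table, of which 20 encode cytosolic enzymes and 17, with names ending in 2, encode mitochondrial enzymes. All 37 passed the filter on low counts, with at least 82 estimated counts in every library. The members were chosen by name, not by their values.

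The series holds 9 libraries of poly(A) RNA. Per the labels, D2.0R cells grown in DMEM with serum and glutamax were dyed with CellTrace Far Red, which is diluted at each division, cultured for a week in DMEM with 2% FBS and sorted into dye-retaining (quiescent) and dye-poor (proliferative) cells. All libraries carry the same description, which names CTFR-positive, bulk and CTFR-negative samples, and their titles differ in a running number from 1 to 9. The labels do not say whether libraries came from separate cultures. No library could be tied to a sorted fraction, so libraries are named by title number, none is read as quiescent or proliferating, and each library's value stands by itself, without a mean and SD. Where positions in the numbering are used below (the runs 1 to 3, 4 to 6 and 7 to 9, and the place within a run), they are places in a list of names and not groups of the study.

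Library totals ran between 18732737 (library 9) and 41243036 estimated counts (library 7). The cell division genes Mki67 and Top2a differed widely. Mki67, whose product Ki-67 marks cycling cells, had 5.64 CPM in library 1, 62.9 in 2, 4.98 in 3, 9.79 in 4, 106 in 5, 9.20 in 6, 28.1 in 7, 149 in 8 and 24.1 in 9, and Top2a, which untangles replicated DNA, ran between 10.0 (library 3) and 132 CPM (library 8). Libraries 2, 5 and 8 were thus the highest 3 for Mki67. Of 9 epithelial and mammary genes 4 passed the filter on low counts, which had to be met in every library. Krt8, an epithelial keratin, had 146 to 662 CPM and Esr1, the oestrogen receptor alpha gene, 3.61 to 15.8 CPM. Epcam, a gene for adhesion between epithelial cells, did not exceed 0.219 CPM. The summed level of the epithelial list was 426, 523 and 791 CPM in libraries 2, 5 and 8 and 234 to 380 CPM in the others. Most of that sum was Krt8, the 1 gene of the 4 with these libraries highest (307, 411 and 662 CPM), whereas its partner keratin gene Krt18 was highest in library 1 (156 CPM) and had 91.3, 88.1 and 106 CPM in libraries 2, 5 and 8. Of 6 mesenchymal genes 5 passed the filter. Col1a1, a collagen chain, had 1100 to 4224 CPM and Zeb1, a repressor of epithelial genes, 0.328 to 3.90 CPM. Col1a1 (3521, 4012 and 4224 CPM) and Vim, a filament gene of mesenchymal cells (5745, 5849 and 5740 CPM against at most 4703), were the 2 of the 5 that were highest in libraries 2, 5 and 8. The summed level of the list was 19845 to 20802 CPM in libraries 2, 5 and 8 and 17623 to 20501 CPM in the others. The part of these markers in the results below was not tested. Of 10 leukocyte and endothelial genes 1, Vwf, passed the filter, and the summed level of the list was 1.51 to 4.63 CPM. In this list Ncr1, Klrk1 and Cdh5 were at 0 in all libraries, but others were not. Pecam1 lay between 0.198 and 0.485 CPM, and the highest values of Ptprc, Kdr and Cd79a were 0.109, 0.148 and 0.198 CPM.

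Each synthetase joins an amino acid to its tRNAs, the step that fixes the meaning of a codon. Mammalian cells keep separate enzymes for the cytosol and for the mitochondrion, both encoded in the nucleus, and fall short of a full double set because the genes of the glycine and lysine enzymes serve both compartments and mitochondrial glutaminyl-tRNA is made by another route. Several cytosolic enzymes sit together in the multisynthetase complex. Transcription of many cytosolic synthetase genes is known to rise when the transcription factor ATF4 is made, as in amino acid shortage or endoplasmic reticulum stress.

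Cytosolic synthetase genes differed between libraries more widely than mitochondrial ones, and most did so in the same order. A gene is called variable here when a chi-square test of dispersion over the 9 libraries, with Benjamini-Hochberg adjustment over all 12813 genes tested, gave an adjusted p under 0.05 and its highest and lowest libraries differed at least 2-fold. By this call 13 of 20 cytosolic genes (65.0%) and 1 of 17 mitochondrial genes (5.88%) were variable, against 28.0% of all genes tested. The median range, on the log2 CPM scale, was 1.28 (2.43-fold) for the cytosolic genes, 0.62 (1.53-fold) for the mitochondrial genes and 0.69 (1.61-fold) for all genes tested. In 15 of the 20 cytosolic genes libraries 2, 5 and 8 were the lowest 3, an order found in 20.1% of all genes tested, and in 0 of the 20 were they the highest 3, against 19.0%. Of the mitochondrial genes 3 of 17 had libraries 2, 5 and 8 lowest, a share near that of all genes, and 0 had them highest.

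**Figure D1:**
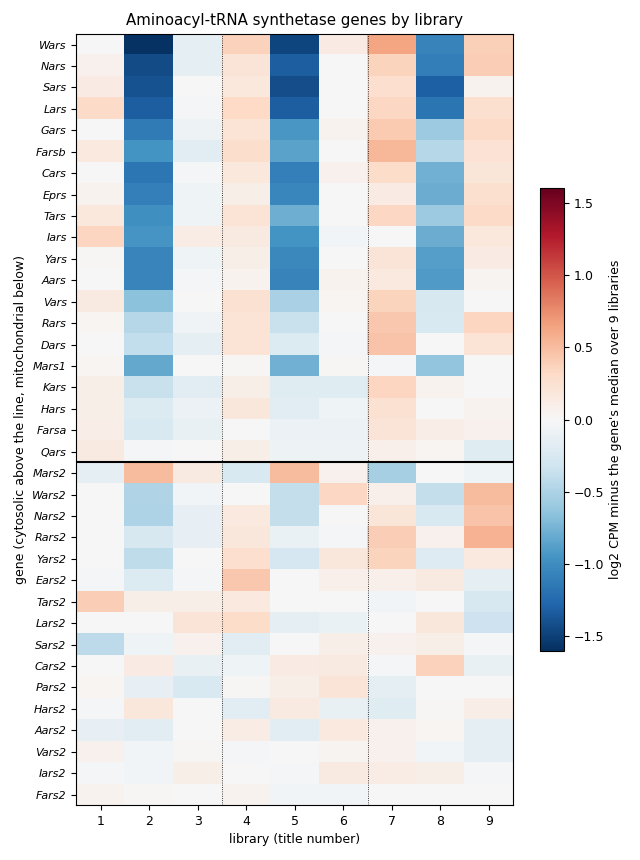
Each row is a synthetase gene (1 mitochondrial gene is not drawn) and each column a library by title number. Colour gives the deviation of log2 CPM from the median of that gene across all 9 libraries, blue for lower and red for higher, with cytosolic genes above the black line sorted by range. Columns 2, 5 and 8 are blue for most cytosolic genes and pale for most mitochondrial ones.

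Among the cytosolic enzymes the widest range was that of Wars (ENSMUSG00000021266, chromosome 12 at 108860030 to 108894174 of GRCm38), the tryptophan enzyme. Wars stood at 144 CPM in library 1, 48.0 in 2, 131 in 3, 187 in 4, 52.0 in 5, 158 in 6, 224 in 7, 68.6 in 8 and 187 in 9. Libraries 2, 5 and 8 lay below the other 6 with no overlap. The highest and lowest libraries, 7 and 2, differed 4.66-fold (95% interval 4.42 to 4.91, counting error only), and the range of Wars exceeded that of 95.6% of the genes tested. For this gene, as for all cytosolic members named below without an adjusted p, the adjusted p of the chi-square test was too small to be represented as a number.

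The next widest were the enzymes for asparagine, serine and leucine. Nars (chromosome 18 at 64499647 to 64516652) stood at 680.1 CPM in library 1, 242 in 2, 585 in 3, 748 in 4, 262 in 5, 651 in 6, 832 in 7, 303 in 8 and 857 in 9. Sars (chromosome 3 at 108424865 to 108445209) stood at 748 CPM in library 1, 259 in 2, 681 in 3, 768 in 4, 254 in 5, 682 in 6, 819 in 7, 276 in 8 and 707 in 9. Both genes were lowest in libraries 2, 5 and 8, with a gap to the other 6 that was wider than the spread on either side of it. The fold between highest and lowest library was 3.54 (95% interval 3.45 to 3.64) for Nars and 3.22 (3.14 to 3.31) for Sars. Lars (chromosome 18 at 42202298 to 42262194), whose enzyme is also known as a leucine sensor of the mTORC1 pathway, stood at 296 CPM in library 1, 96.2 in 2, 236 in 3, 299 in 4, 96.3 in 5, 241 in 6, 304 in 7, 107 in 8 and 287 in 9. Its 3 low values were close to one another, and its fold was 3.16 (95% interval 3.04 to 3.28).

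Gars (chromosome 6 at 55038007 to 55079500), which supplies the glycine enzyme of both compartments, followed the same order. It stood at 336 CPM in library 1, 153 in 2, 319 in 3, 392 in 4, 176 in 5, 349 in 6, 451 in 7, 224 in 8 and 416 in 9, a 2.94-fold range (95% interval 2.85 to 3.03). Kars (chromosome 8 at 111993443 to 112011323), the other gene that serves both compartments, did not. Kars stood at 212 CPM in library 1, 154 in 2, 175 in 3, 212 in 4, 173 in 5, 174 in 6, 252 in 7, 207 in 8 and 198 in 9, so that library 8 lay among the higher values and the range was 1.63-fold (95% interval 1.58 to 1.69; chi-square test, adjusted p 6.34e-274). The 2 genes thus fell on different sides of the 2-fold threshold, and their intervals, which cover counting error only, do not overlap.

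The phenylalanine enzyme of the cytosol is a tetramer of alpha and beta chains, encoded by Farsa and Farsb. Farsb, the beta chain, stood at 60.8 CPM in library 1, 28.3 in 2, 48.7 in 3, 66.2 in 4, 30.3 in 5, 54.7 in 6, 79.2 in 7, 40.0 in 8 and 64.5 in 9, a 2.80-fold range (95% interval 2.61 to 3.01). Farsa, the alpha chain, ranged 1.36-fold (1.30 to 1.44), between 69.2 (library 2) and 94.4 CPM (library 7), with 88.1 CPM in library 8 (chi-square test, adjusted p 1.21e-43). The 2 chains of 1 enzyme therefore did not share an order, and library 8 was low for Farsb and high for Farsa.

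Cars, the cysteine enzyme, stood at 123 CPM in library 1, 55.6 in 2, 121 in 3, 138 in 4, 57.8 in 5, 129 in 6, 151 in 7, 72.5 in 8 and 141 in 9. Eprs (chromosome 1 at 185363044 to 185428360), a fusion of the glutamate and proline enzymes, stood at 524 CPM in library 1, 236 in 2, 483 in 3, 538 in 4, 246 in 5, 505 in 6, 554 in 7, 293 in 8 and 601 in 9. These 2 genes ranged 2.72-fold and 2.55-fold, again with libraries 2, 5 and 8 apart from the rest. Tars, the threonine enzyme, stood at 284 CPM in library 1, 129 in 2, 242 in 3, 294 in 4, 147 in 5, 253 in 6, 318 in 7, 169 in 8 and 313 in 9. Iars, the isoleucine enzyme, stood at 359 CPM in library 1, 147 in 2, 307 in 3, 312 in 4, 146 in 5, 274 in 6, 283 in 7, 163 in 8 and 319 in 9. Iars differed from most of the others at the top of the order, being highest in library 1 and not in library 7.

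Yars, the tyrosine enzyme, stood at 174 CPM in library 1, 82.4 in 2, 164 in 3, 183 in 4, 83.7 in 5, 172 in 6, 198 in 7, 93.1 in 8 and 188 in 9. Aars (chromosome 8 at 111033144 to 111057664), the alanine enzyme and the member with the most counts, stood at 1225 CPM in library 1, 586 in 2, 1199 in 3, 1272 in 4, 585 in 5, 1269 in 6, 1371 in 7, 656 in 8 and 1261 in 9. Within each set the values of Aars were close, from 585 to 656 CPM in libraries 2, 5 and 8 and from 1199 to 1371 CPM in the other 6, and its fold was 2.34 (95% interval 2.30 to 2.38). Vars, the valine enzyme, was the last called variable, between 135 (library 2) and 273 CPM (library 7). The log2 range of Vars, 1.02, fell to 0.88 without library 2, to 0.89 without library 7 and to 0.95 with libraries scaled by totals alone, each under the 2-fold threshold.

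The 7 cytosolic genes that were not called variable were Rars, Dars, Mars1, Kars, Hars, Farsa and Qars. Rars and Mars1, the arginine and methionine enzymes, had libraries 2, 5 and 8 as the lowest 3 but ranged 1.85-fold and 1.80-fold, Rars between 132 (library 2) and 245 CPM (library 7) and Mars1 between 126 (library 2) and 227 CPM (library 1). Dars, the aspartate enzyme, ranged 1.81-fold, between 47.0 (library 2) and 85.0 CPM (library 7). Hars, the histidine enzyme, ranged 1.38-fold, with 70.6 and 97.5 CPM in the same libraries. By the chi-square test the adjusted p was 9.18e-122 for Dars and 2.13e-55 for Hars. Qars, the glutamine enzyme, had the narrowest range of the cytosolic genes. It stood at 135 CPM in library 1, 119.6 in 2, 122 in 3, 130.1 in 4, 116 in 5, 115 in 6, 130.0 in 7, 125 in 8 and 107 in 9, a 1.26-fold range (95% interval 1.19 to 1.33; chi-square test, adjusted p 1.22e-24), with library 9 lowest.

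**Figure D2:**
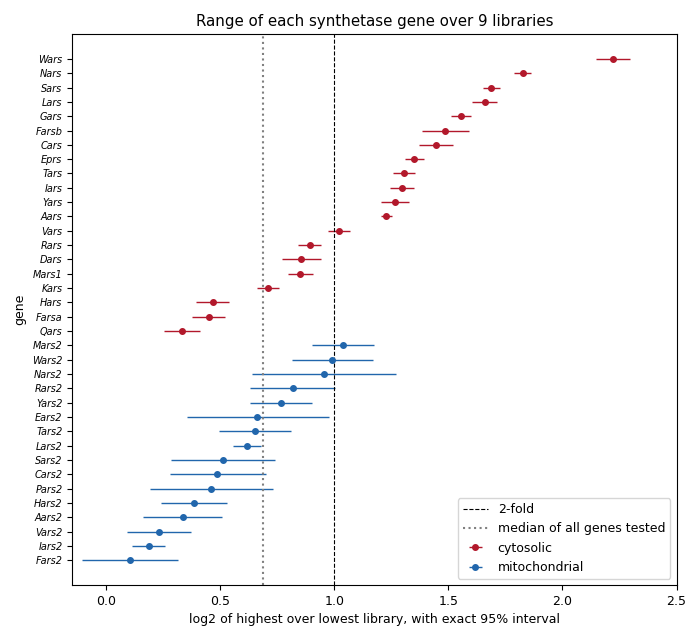
Points give the log2 ratio of the highest to the lowest library for each synthetase gene (1 mitochondrial gene is not drawn) and bars its exact 95% interval, which covers counting error only. The dashed line marks 2-fold and the dotted line the median range of all genes tested, 0.69. Of the cytosolic genes 13 of 20 lie past 2-fold, and of the mitochondrial genes Mars2 alone.

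Membership of the multisynthetase complex and the catalytic class of the enzyme, both taken from general knowledge, were set beside the calls. Of the 8 cytosolic enzymes of the complex (Dars, Eprs, Iars, Kars, Lars, Mars1, Qars and Rars) 3 were variable (37.5%). Of the 12 outside it 10 were (83.3%), against 28.0% of all genes tested. The median range was 1.83-fold in the complex and 2.59-fold outside. Class I enzymes, which share 1 fold of the catalytic domain, had 6 variable genes of 9, and class II enzymes, which share another, 6 of 10, with Eprs holding a domain of each. Median ranges of the 2 classes were 2.40-fold and 2.41-fold. These are counts over few genes, and no test was made of them.

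Most mitochondrial genes did not have libraries 2, 5 and 8 lowest as most cytosolic ones did. Each list was given a score per library, namely the median deviation of its genes, where a deviation is log2 CPM less the median of that gene. For the cytosolic genes it was 0.08 in library 1, -0.97 in 2, -0.06 in 3, 0.17 in 4, -0.89 in 5, 0 in 6, 0.31 in 7, -0.61 in 8 and 0.18 in 9. For the mitochondrial genes it lay between -0.05 in library 2 and 0.07 in library 6. This median is taken over genes that lay on both sides of it, as in library 2, where the deviation was 0.50 for Mars2 and -0.49 for Wars2, so it does not measure how far single genes moved. The median over all genes tested was 0 in every library on this scale. Summed over the 20 cytosolic genes, levels ran between 2916 (library 2) and 6977 CPM (library 7), a 2.39-fold difference (95% interval 2.38 to 2.41), with 35.7% to 44.4% of each sum from its 3 genes of most counts. Summed over the 17 mitochondrial genes they ran between 530.5 (library 9) and 614 CPM (library 4), or 1.16-fold (1.13 to 1.19). Lars2, Iars2 and Vars2 held 54.4% to 62.5% of that sum. Iars2 and Vars2 were among the narrowest members at 1.14-fold and 1.17-fold. Lars2 ranged 1.53-fold and, like the sum, was highest in library 4 and lowest in library 9. The sum varied less than the median member (1.53-fold), and the reason was not tested.

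Mars2 (chromosome 1 at 55237177 to 55248470), the mitochondrial methionine enzyme, was the 1 variable mitochondrial gene, and its order was not that of the cytosolic genes. It stood at 23.8 CPM in library 1, 37.4 in 2, 29.3 in 3, 22.3 in 4, 37.6 in 5, 27.8 in 6, 18.3 in 7, 26.4 in 8 and 25.2 in 9. Libraries 2 and 5 were its highest, library 7 its lowest, and library 8 lay in the middle. The range was 2.05-fold (95% interval 1.87 to 2.25; chi-square test, adjusted p 7.65e-83), and it fell to 0.76 on the log2 scale without library 7, where no mitochondrial gene was called variable.

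Wars2, the mitochondrial tryptophan enzyme, stood at 20.8 CPM in library 1, 14.8 in 2, 20.2 in 3, 20.8 in 4, 15.9 in 5, 26.2 in 6, 22.0 in 7, 16.0 in 8 and 29.4 in 9. Its range of 1.99-fold (95% interval 1.76 to 2.25; chi-square test, adjusted p 2.35e-49) ended just short of the threshold. Nars2, the mitochondrial asparagine enzyme, stood at 6.79 CPM in library 1, 4.80 in 2, 6.17 in 3, 7.55 in 4, 5.20 in 5, 6.84 in 6, 7.76 in 7, 5.72 in 8 and 9.30 in 9. In both genes, as in Yars2, libraries 2, 5 and 8 were the lowest 3 and none of the 3 was called variable. Rars2, the mitochondrial arginine enzyme, stood at 17.2 CPM in library 1, 14.4 in 2, 15.7 in 3, 19.5 in 4, 15.9 in 5, 16.9 in 6, 22.6 in 7, 18.0 in 8 and 25.3 in 9, so that library 3 lay below library 5.

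The other mitochondrial genes ranged from 1.07-fold to 1.70-fold. Fars2, the mitochondrial phenylalanine enzyme, was the narrowest, at 1.07-fold (95% interval 0.930 to 1.24), and was the 1 member of 37 that did not pass the chi-square test (adjusted p 0.986). The other 36 members varied by more than counting noise, as did 94.1% of all genes tested. Iars2, the mitochondrial isoleucine enzyme, lay between 87.4 and 99.4 CPM and Vars2, the valine enzyme, between 31.4 and 36.9 CPM. Tars2, the threonine enzyme, was highest in library 1 (39.3 CPM) and lowest in library 9 (25.1 CPM).

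**Figure D3:**
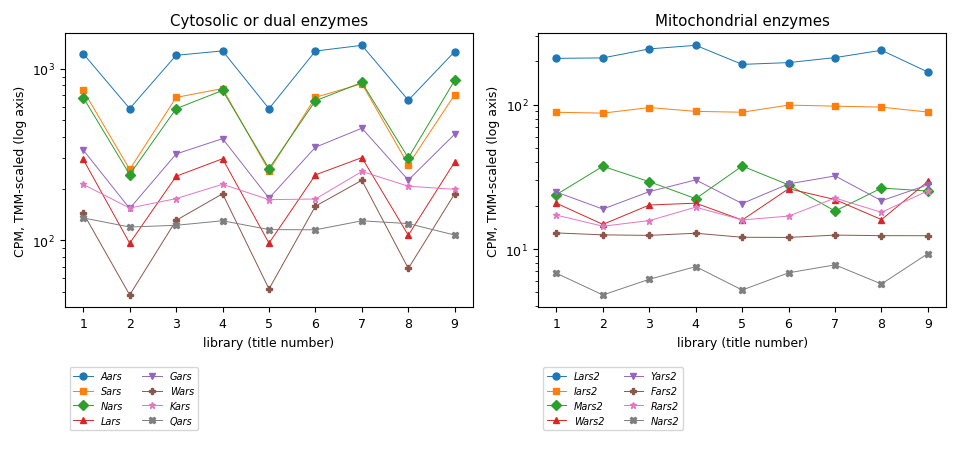
TMM-scaled CPM on a log axis are plotted by library for 8 cytosolic or dual genes (left) and 8 mitochondrial genes (right), with lines joining the values of a gene. Aars, Sars, Nars, Lars, Gars and Wars dip in libraries 2, 5 and 8 while Qars stays between 107 and 135 CPM, and Mars2 peaks in libraries 2 and 5.

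Set per kilobase of annotated exon, so that genes can be compared, the median level over libraries was highest for Nars (149 CPM per kb), Sars (133), Aars (132) and Gars (108). The median over genes was 42.4 CPM per kb for the cytosolic enzymes and 3.47 for the mitochondrial enzymes. Among mitochondrial enzymes Lars2, the leucine enzyme, was highest at 19.0 CPM per kb, above Farsa, Qars, Cars and Dars of the cytosolic set (14.2 to 18.8), and Nars2 and Ears2 were lowest at 0.975 each. Exon lengths are the union over all annotated transcripts, which understates the level of genes with long minor transcripts such as Eprs (18102 bases).

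For 17 mitochondrial genes a cytosolic enzyme for the same amino acid exists, giving 18 pairs in which Eprs serves for glutamate and proline and Fars2 is set against each chain of the cytosolic enzyme. The ratio of the 2 counts within a library does not depend on how libraries are scaled. In 12 of 18 pairs this ratio differed at least 2-fold between libraries, and in 15 of 18 it was lowest in libraries 2, 5 and 8, with a median range of 2.57-fold. Pairs that share a gene are not independent. Ratios of other pairs of genes were not computed, so these counts have no share to be read against. Each ratio holds the cytosolic count, so it repeats in part the order of the cytosolic genes given above.

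The widest pair was that of the serine enzymes. The counts of Sars exceeded those of Sars2 87.3-fold in library 1, 23.7-fold in 2, 56.6-fold in 3, 76.3-fold in 4, 22.2-fold in 5, 56.0-fold in 6, 68.4-fold in 7, 22.6-fold in 8 and 62.4-fold in 9. The highest and lowest ratios differed 3.93-fold (95% interval 3.31 to 4.66). For leucine the ratio of Lars to Lars2 was 1.42 in library 1, 0.456 in 2, 0.970 in 3, 1.16 in 4, 0.506 in 5, 1.23 in 6, 1.43 in 7, 0.449 in 8 and 1.70 in 9. The mitochondrial gene thus had more counts than the cytosolic one in libraries 2, 3, 5 and 8. These are counts without correction for length, and Lars2 has 11089 annotated exon bases against 5368 for Lars. For methionine the ratio of Mars1 to Mars2 ranged 3.52-fold (3.19 to 3.88), from 3.36 in library 2 to 11.8 in library 7. Mars1 itself ranged 1.80-fold, and Mars2 was highest in libraries 5 and 2.

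The narrowest pair was that of the arginine enzymes, where the ratio of Rars to Rars2 stayed between 8.54 and 11.07, a 1.30-fold range (95% interval 1.15 to 1.46). Both genes of that pair had their lowest value in library 2. The ratio of Farsa to Fars2 ranged 1.37-fold and that of Yars to Yars2 1.73-fold. The histidine enzymes lie head to head on chromosome 18, Hars at 36766528 to 36783205 and Hars2 at 36783008 to 36792562, with overlapping first exons. Their order differed, since library 2 was lowest for Hars (70.6 CPM) and highest for Hars2 (23.5 CPM) and library 7 was highest for Hars (97.5 CPM) and lowest for Hars2 (18.0 CPM). The ratio of Hars to Hars2 ranged 1.80-fold (1.61 to 2.02). The start sites are 197 bases apart and 195 exon bases are shared on opposite strands, where reads cannot be told apart unless strand was used.

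**Figure D4:**
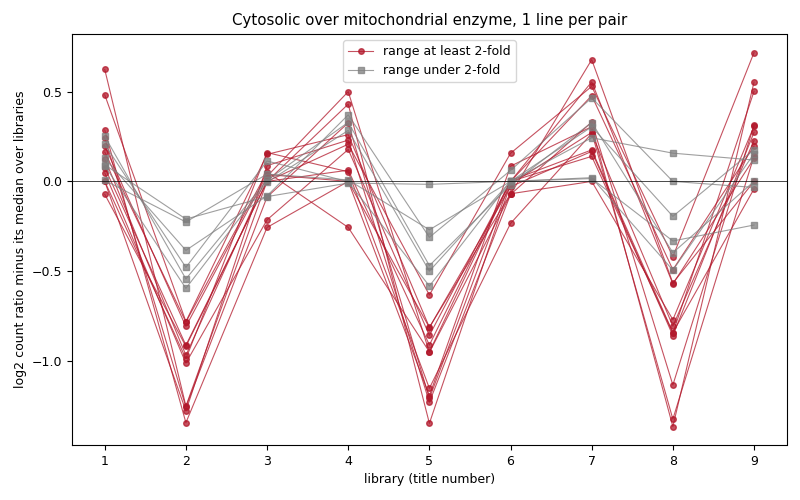
Each line is a pair of cytosolic and mitochondrial genes for 1 amino acid, and the vertical axis gives the log2 ratio of their counts in a library minus the pair's median over the 9 libraries. The 12 pairs with a range of at least 2-fold (red circles) all dip in libraries 2, 5 and 8, and the 6 others (grey squares) vary less.

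By place in the numbering, the second library of each run (2, 5 and 8) was the lowest of its run in 17 of 20 cytosolic genes and 4 of 17 mitochondrial genes, against 29.5% of all genes tested. The low libraries were not equal. In 16 of 20 cytosolic genes library 2 was below 5 and 5 below 8, an order found in 34.3% of all genes. Among the first libraries of the runs, 1 was below 4 and 4 below 7 in 16 of 20 (33.7% of all genes), and among the third, 3 was below 6 and 6 below 9 in 14 of 20 (28.4%). In mitochondrial genes these counts were 10, 7 and 4 of 17, the first a larger share than that of all genes. The third library of each run was below the first in 16 of 20 cytosolic and 3 of 17 mitochondrial genes (27.9% of all genes). Libraries 3, 6 and 9 were all below 1, 4 and 7 in 6 of 20 (11.3%). Library 2 was the lowest of all 9 in 16 of 20 cytosolic genes (18.2% of all genes) and library 7 the highest in 15 of 20 (14.3%). In mitochondrial genes these counts were 7 and 2 of 17, so part of the cytosolic order, library 2 lowest, was also frequent there.

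The core of the C/EBP-ATF response element, the site that ATF4 is known to bind with C/EBP partners, was looked for in the RefSeq promoter windows of GRCm38.p6, which hold 250 bases before and 50 after a start site. Windows were matched for 27 of the 37 members by gene ID, 13 cytosolic and 14 mitochondrial, and not for the other 10, which include Hars, Vars, Cars, Rars, Hars2, Wars, Lars, Nars and Pars2. The motif searched was TGATGNAA on both strands. It was found in 5 of 13 cytosolic and 0 of 14 mitochondrial members, against 3.97% of all 32851 windows. Members and list genes were counted by gene, where a match in any window was enough. The shares of all windows, here and below, count windows, without a filter on expression. The 5 members, Aars, Gars, Iars, Tars and Yars, were among the 8 variable cytosolic members with a window (Eprs, Farsb and Sars are the others), and it was found in 0 of the 5 that were not variable. In the ATF4 response list 9 of 26 genes with a window held it.

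A match in each of the 5 is printed because it is a feature of sequence that these variable members share. Each line gives 30 bases of the gene's own strand, with the match in capitals, as TGATGNAA in Yars and as its reverse complement in the others.
Aars, from base 10 after the start site, chr8:111033840-111033869, plus strand: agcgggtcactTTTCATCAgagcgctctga
Gars, from base -30, chr6:55037960-55037989, plus strand: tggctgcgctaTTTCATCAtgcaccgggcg
Iars, from base 8, chr13:49682126-49682155, plus strand: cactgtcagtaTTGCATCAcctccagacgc
Tars, from base -15, chr15:11399655-11399684, minus strand: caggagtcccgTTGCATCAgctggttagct
Yars, from base 4, chr4:129189895-129189924, plus strand: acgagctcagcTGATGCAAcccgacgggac
The E-box CACGTG, a site of MYC and related factors, was found in 4 of 13 cytosolic members (Aars, Farsb, Iars and Tars). It was found in 1 of 14 mitochondrial members (Ears2), against 7.15% of all windows. By call it was in 4 of the 8 variable cytosolic members with a window and 0 of the 5 others. Aars, Iars and Tars held both motifs. The palindromic NRF1 site, searched as its 10-letter consensus, was found in 0 of 27 members, against 0.971%. A match of letters is a description and not a bound site.

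Genes that work beside the synthetases were taken from lists chosen with earlier results of these data known. Among 12 genes of the multisynthetase scaffold and of tRNA handling 3 were variable (28.0% of all genes tested were), 6 had libraries 2, 5 and 8 lowest (20.1%) and 2 had them highest (19.0%). The first and the last of these shares are near those of all genes. Xpot, the exporter of tRNA from the nucleus, had the widest range. It stood at 312 CPM in library 1, 120.2 in 2, 302 in 3, 322 in 4, 132 in 5, 319.5 in 6, 339 in 7, 156 in 8 and 398 in 9, which was 3.31-fold and in the order of the cytosolic synthetases. The complex is held together by 3 scaffold proteins, and their genes are given here because of that role. Eef1e1 ranged between 12.1 (library 2) and 29.1 CPM (library 7) (2.41-fold) and Aimp2 from 13.3 to 28.9 CPM in the same libraries (2.18-fold), both variable, and Aimp1 between 59.2 (library 2) and 118 CPM (library 9) (1.998-fold), just under the threshold.

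Of 13 partners of mitochondrial translation 0 were variable (28.0% of all genes tested were), although 10 passed the chi-square test (94.1% of all genes). Those of widest range were Mtrf1l, a release factor gene, between 3.56 (library 9) and 7.04 CPM (library 1), and Mrrf, the ribosome recycling factor, between 15.8 (library 8) and 28.3 CPM (library 1). Qrsl1, Gatb and Gatc, given here because they encode subunits of the amidotransferase that makes mitochondrial glutaminyl-tRNA, ranged 1.37-fold, 1.31-fold and 1.63-fold. The first 2 did not pass the chi-square test (adjusted p 0.193 and 0.0575). The 6 cytosolic elongation factor genes were not variable either. All 6 were lowest in library 2 (18.2% of all genes) and highest in library 7 (14.3%). Eif5a lay between 419 and 832 CPM and Eef1a1 between 4222 and 7890.4 CPM.

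Of the 28 genes listed as responding to ATF4, 25 were variable, against 28.0% of all genes tested. In 25 of the 28 genes, libraries 2, 5 and 8 were lowest (20.1% of all genes). Atf4 itself stood at 405 CPM in library 1, 217 in 2, 388 in 3, 464 in 4, 226 in 5, 413 in 6, 494 in 7, 252 in 8 and 460.1 in 9, a 2.27-fold range. Asns, the asparagine synthetase gene, stood at 307 CPM in library 1, 79.6 in 2, 275 in 3, 316 in 4, 95.9 in 5, 290.4 in 6, 344 in 7, 120.5 in 8 and 296 in 9. The members of widest range were Cth, an enzyme of cysteine synthesis, with 4.78 (library 2) and 65.0 CPM (library 7) as its extremes, and Slc7a11, the cystine transporter, with 79.1 (library 5) and 632 CPM (library 1). Trib3 and Ddit3, a pseudokinase and a transcription factor gene of the stress response, ranged from 49.3 to 388 and from 52.8 to 287 CPM. Chac1, a glutathione-degrading enzyme, ranged from 22.5 to 120.0 CPM and Psat1, an enzyme of serine synthesis, from 73.1 to 249 CPM. The median range of the list was 3.52-fold, and that of the cytosolic synthetases was 2.43-fold.

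Of 10 genes of amino acid sensing and the stress response 2 were variable, a share near the 28.0% of all genes. Both are also known as targets of ATF4. They were Eif4ebp1, which encodes a translation inhibitor, between 87.6 (library 2) and 333 CPM (library 7), and Ppp1r15a, a phosphatase subunit, between 68.9 (library 8) and 229 CPM (library 7). In 4 of the 10 genes libraries 2, 5 and 8 were lowest (20.1% of all genes). In 2 of the 10 they were highest, a share near the 19.0% of all genes. These 2 were the kinase genes Eif2ak3 and Eif2ak2, named after their values were seen. Eif2ak3 had 52.6, 47.6 and 42.3 CPM in libraries 2, 5 and 8 against at most 37.0 in the others. Eif2ak4, another kinase gene of the list, had neither order and ranged 1.37-fold, lowest in library 2 and highest in library 8. In the ribosome biogenesis list 7 of 10 genes were variable (28.0% of all genes) and all 10 had libraries 2, 5 and 8 lowest (20.1%). Among them was the transcription factor gene Myc, between 62.6 (library 2) and 206 CPM (library 4). Another was Rrp12, needed for ribosomal subunit export, with 20.2 CPM at its lowest (library 2) and 57.0 at its highest (library 7). In the cell division list all 8 genes were variable (28.0% of all genes) and 7 had libraries 2, 5 and 8 highest (19.0%). Ccnb2, the mitotic cyclin B2, had the widest range, between 0.481 (library 3) and 26.0 CPM (library 8). The low values of the cytosolic synthetases thus stood in the libraries with the most RNA of division genes. This contrast was between libraries 2, 5 and 8 and the rest. By place in the numbering the division genes rose as most cytosolic synthetases did. Library 2 was below 5 and 5 below 8 in 8 of 8 division genes (34.3% of all genes). Library 1 was below 4 and 4 below 7 in 7 of 8 (33.7%), and 3 below 6 and 6 below 9 in 7 of 8 (28.4%). The part of cell division in the synthetase values was not tested. In libraries of many cells, fewer cells with a transcript and less of it per cell cannot be told apart.

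**Figure D5:**
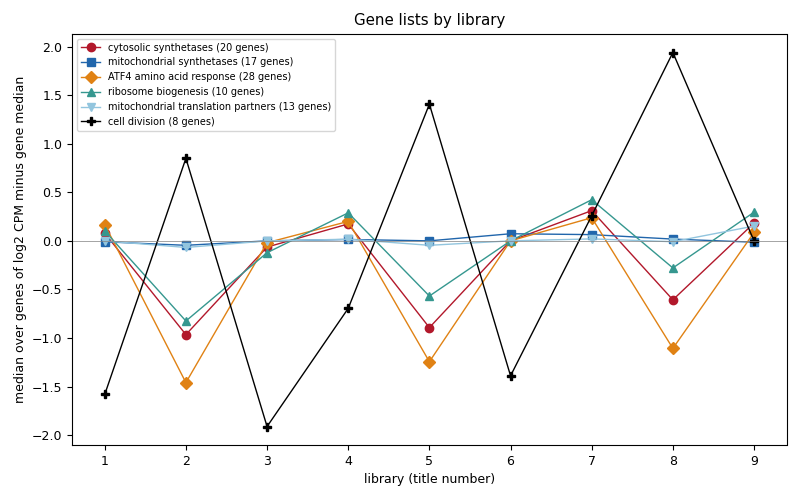
The vertical axis gives, for each gene list and library, the median over the list's genes of log2 CPM minus the gene's median over the 9 libraries. Cytosolic synthetases reach -0.97, -0.89 and -0.61 in libraries 2, 5 and 8, between the ribosome biogenesis and ATF4 lists. Mitochondrial synthetases stay between -0.05 and 0.07, and the division genes are highest in libraries 2, 5 and 8.

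Several members share exon bases with another gene, which makes their values less certain. Iars2 shares 22.9% of its exon bases with Rab3gap2 on the opposite strand, which reached 84.8 CPM, Cars2 shares 5.83% with Naxd, and Mars1 shares 68 bases with Ddit3, both also on opposite strands, where counting by strand would separate the reads. Aars shares 14.3% with Exosc6 on its own strand, where it would not. Exosc6 was listed at 0 in all libraries, and how its reads were assigned was not tested.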

How the data were processed

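The values are expected counts of reads per gene, deposited by the authors as whole numbers without normalisation. Tools in the submitters' processing notes were STAR 2.7.8a and RSEM 1.3.3, besides cutadapt 2.3 and FastQC 0.11.8, on GRCm38. Annotation release and strand setting: not given in the sources used here. Each of the 9 columns matched 1 title.

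Library scaling used TMM (edgeR 4.0.16, R 4.3.3). Log2 CPM used a prior count of 2, which understates ranges of low genes. The edgeR filter (10 counts at the median library size, 15 in total) kept 12813 genes. Without groups its cutoff had to be met in every library, so genes low in any 1 library were left out. With no groups no quasi-likelihood coefficient could be tested. The chi-square test of dispersion (scipy 1.17.1) was checked on counts simulated with Poisson noise alone, the noise that the test assumes. That check therefore does not cover wider noise between real libraries. The test does not separate biological from technical variation. Fold intervals are exact 95% conditional intervals and cover counting error only. RSEM divides ambiguous reads between genes.

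Coordinates and exon lengths are from GENCODE M21 on GRCm38, and promoter windows from RefSeq on GRCm38.p6. Members, lists, tests and alternatives were chosen with earlier results of these data known. Values for all libraries are given for the 12 variable members of widest range, for Gars, Kars, Qars and Eprs and for the 4 mitochondrial genes of widest range. From each list the 2 genes of widest range are named, besides Atf4, Asns, Trib3, Ddit3, Chac1, Psat1, Mki67 and Top2a. The values of 1 mitochondrial member and 1 promoter match are not reported here, though counts and medians over members include them. Other genes were named for their role or after their values were seen.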

Additional observations from a re-analysis of the deposited data

How the results depend on the processing

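Alternatives were other scalings (RLE size factors, totals alone), other filters (none beyond 1 count, or a mean of at least 1 CPM), a prior count of 0.5, a 1.5-fold threshold and leaving out each library in turn. The values compared were counts and ranges, which have no direction. With a 1.5-fold threshold 26 synthetase genes were variable, 9 of them mitochondrial, while 56.7% of all genes passed. The median range of the cytosolic genes was 1.21 on the log2 scale with totals alone. Leaving out 1 library gave 12 to 14 variable synthetase genes, 12 to 13 cytosolic and 0 to 1 mitochondrial, with cytosolic median ranges of 1.19 to 1.28, mitochondrial medians of 0.48 to 0.63, and 11 to 12 pairs with a ratio range of at least 2-fold. Libraries 2, 5 and 8 (or those of them kept) were lowest in 15 to 18 cytosolic and 3 to 4 mitochondrial genes, which says nothing of stability, since leaving out a library leaves the order of the rest. The higher counts were those without library 8. Single calls changed for Vars (0.95 with totals alone, 0.88 and 0.89 without library 2 or 7) and Mars2 (0.76 without library 7). RLE factors and totals shifted the median gene by at most 0.05 in any library. No paired analysis was possible because no library could be given a group or a replicate number. Depth limits the low mitochondrial genes most: the interval of the Nars2 range ran from 1.56-fold to 2.41-fold.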
